A study of Mus musculus with 9 samples.

Results

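Imprinted genes were examined in the polyadenylated RNA of V6.5 cells, a hybrid line of mouse embryonic stem cells. The members are 40 genes known in the mouse to be expressed from only 1 parental allele in at least some tissues, chosen by symbol and matched by Ensembl identifier among 52550 genes of the deposited exon count table. All 40 had a row, and 34 had enough reads to be tested among 11893 genes tested. The 5 libraries labelled DKO came from cells labelled as lacking both KLF2 and KLF4, and the 4 libraries labelled WT from wild-type cells of the same origin. The medium of both groups was Knockout DMEM that held 15% FBS, LIF and small molecules that block MEK and GSK, so that every library comes from cells under MEK inhibition. The libraries were made with a kit that reads the 3' ends of transcripts (QuantSeq, forward version), and neither the deleted part of either gene nor the number of clones is given in the labels. They also do not state that replicates were separate cultures, so the p-values cover only the spread among these libraries, and that spread may be technical.

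Genomic imprinting marks the maternal and paternal copies of a gene differently, through DNA methylation laid down in egg or sperm at imprinting control regions and kept after fertilisation by ZFP57, TRIM28 and DNMT1. Imprinted genes lie in domains where a control region often drives a long noncoding RNA from 1 parental chromosome, and many act on growth of the embryo and placenta. In mouse embryonic stem cells, MEK inhibition is known to lower DNA methylation, including at imprinted regions when it is prolonged. The counts do not separate the parental alleles and no methylation was measured, so a level here is the sum of both copies.

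Library totals lay between 6035642 and 7098530 counts, and the first principal component, with 69.2% of the variance, separated the groups. Among the libraries labelled DKO, replicate 3 stood apart on the next component (6.1% of the variance). Reads of Klf2 and of Klf4 were more numerous in DKO than in WT (log2 fold changes of 0.42 ± 0.04 and 0.91 ± 0.06, SE), which goes against the label, although 3' reads outside a deleted part check nothing. Directions are therefore those of libraries labelled DKO over libraries labelled WT. The stem cell markers Pou5f1, Nanog, Sox2, Zfp42, Esrrb and Tdgf1 were read in every library, with a sum of 1619 to 1728 CPM (counts scaled to library size) in the libraries labelled DKO and 1512 to 1591 CPM in WT. Singly they went both ways. Sox2, Nanog and Esrrb rose (log2 fold changes of 0.72, 0.22 and 0.28). Tdgf1 and Zfp42 fell (-0.82 and -0.20), and Pou5f1 did not pass the test (-0.15). The endoderm marker list summed to 0.338 to 0.940 CPM in DKO and 1.52 to 3.69 CPM in WT. The neural list, mostly Tubb3, summed to 44.4 to 68.3 CPM in DKO and 88.7 to 107.7 CPM in WT. Tubb3 fell (log2 fold change -1.19) on chromosome 8, where its nearest tested genes had a median of -0.57. Among the other neural markers, Neurod1 fell (-1.15), and Sox1 (0.12) and Map2 (-0.23) did not pass the test. Pax6, which was not tested, had 31 counts in DKO and 9 in WT. The part of neural cells in the lower sum was not tested. Defining markers of fibroblasts and endoderm had few reads. Over all libraries of a group, the fibroblast gene Col1a1 had 19 counts in DKO and 18 in WT, and the endoderm gene Afp had 2 counts in DKO and 1 in WT. Pdgfrb, the fibroblast marker with the most reads, had 37 in DKO and 36 in WT, and the endoderm marker Gata4 had 11 in DKO and 19 in WT. Sox17, an endoderm marker, had 4 counts in DKO and 28 in WT, and Thy1, a fibroblast marker, had 3 in DKO and 22 in WT (edgeR adjusted p = 0.000879 and 0.00369 in a fit without the filter).

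RefSeq promoter windows (build GRCm38.p6, the same assembly as the mm10 build named by the submitters) were matched for 31 of the 40 members. Those without a window were Cdkn1c, H19, Impact, Peg10, Peg13, Rtl1, Sgce, Trappc9 and Zfp264. The 250 bases before each start were searched on both strands for TGCCGC, the hexamer that ZFP57 binds when it is methylated, and for CCACACCC, a CACCC box of the kind KLF factors bind. The hexamer was found in 7 of 31 members (22.6%) and in 9.84% of 27025 genes with a window, and the CACCC box in 2 of 31 (6.45%) and in 3.68% of genes. A gene counts if any of its windows holds the motif, and members with several windows have more chances. The hexamer stood before Copg2, Meg3, Mest, Nap1l5, Plagl1, Zdbf2 and Zim1. The stretches below are those of the 4 hexamer-bearing members that passed the test, and the interval between Peg3 and Usp29, which start back to back and moved the same way. They are written 5' to 3' with capitals for the hexamer or the CACCC box on either strand, and no stretch holds both motifs.
Meg3 (chr12:109540746-109540995, plus strand): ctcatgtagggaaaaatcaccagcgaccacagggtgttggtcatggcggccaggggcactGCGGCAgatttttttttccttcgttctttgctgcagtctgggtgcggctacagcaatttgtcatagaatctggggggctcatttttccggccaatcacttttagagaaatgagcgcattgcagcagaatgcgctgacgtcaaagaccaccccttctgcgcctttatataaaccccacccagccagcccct
Mest (chr6:30737803-30738052, plus strand): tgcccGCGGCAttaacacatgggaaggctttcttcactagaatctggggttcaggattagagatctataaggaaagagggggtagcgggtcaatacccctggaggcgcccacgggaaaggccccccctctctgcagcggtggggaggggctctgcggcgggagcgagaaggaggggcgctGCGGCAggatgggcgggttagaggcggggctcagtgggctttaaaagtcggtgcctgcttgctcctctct
Plagl1 (chr10:13090582-13090831, plus strand): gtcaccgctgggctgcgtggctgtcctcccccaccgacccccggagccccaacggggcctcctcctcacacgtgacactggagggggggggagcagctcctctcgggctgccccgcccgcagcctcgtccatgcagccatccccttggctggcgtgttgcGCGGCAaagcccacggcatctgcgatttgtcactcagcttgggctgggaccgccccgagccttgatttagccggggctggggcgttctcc
Zdbf2 (chr1:63200108-63200357, plus strand, the more distant of its windows): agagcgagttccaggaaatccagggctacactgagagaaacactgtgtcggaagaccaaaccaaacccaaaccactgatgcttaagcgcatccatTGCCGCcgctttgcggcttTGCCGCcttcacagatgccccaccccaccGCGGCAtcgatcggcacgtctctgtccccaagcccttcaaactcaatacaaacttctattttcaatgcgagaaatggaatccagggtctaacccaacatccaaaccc
Peg3 and Usp29 (chr7:6730420-6730582, plus strand, the 163 bases between both starts): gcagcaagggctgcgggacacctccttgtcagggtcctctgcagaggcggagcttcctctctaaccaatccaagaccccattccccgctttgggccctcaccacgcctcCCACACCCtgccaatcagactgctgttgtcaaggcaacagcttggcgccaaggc
A match is a description of these letters and not of a bound site.

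Imprinted genes changed in both directions in the libraries labelled DKO. Phlda2, Mest, Ascl2, Peg12 and Dlk1 each fell by more than 2-fold, and Usp29 rose by more than 2-fold. Plagl1, H19, Peg3, Gnas, Cd81, Impact, Zdbf2 and the noncoding RNAs Meg3 and Rian rose by less than 2-fold. Of the 34 tested members, 15 passed as higher (44.1%) and 8 as lower (23.5%), by edgeR's quasi-likelihood test with an adjusted p under 0.05 over all genes, and 11 did not pass. Over all genes tested, 23.9% passed as higher and 24.0% as lower, so the share of members that fell was close to that of genes at large. Changes of at least 2-fold numbered 1 higher and 5 lower, where 4.14% and 6.05% of all genes tested did so. The median log2 fold change was 0.20 over the tested members and 0.01 over all genes tested. The 2 groups of libraries did not overlap for 11 tested members that were higher and 6 that were lower in DKO, while 18.4% and 19.1% of all genes tested were separated in this way.

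**Figure D1:**
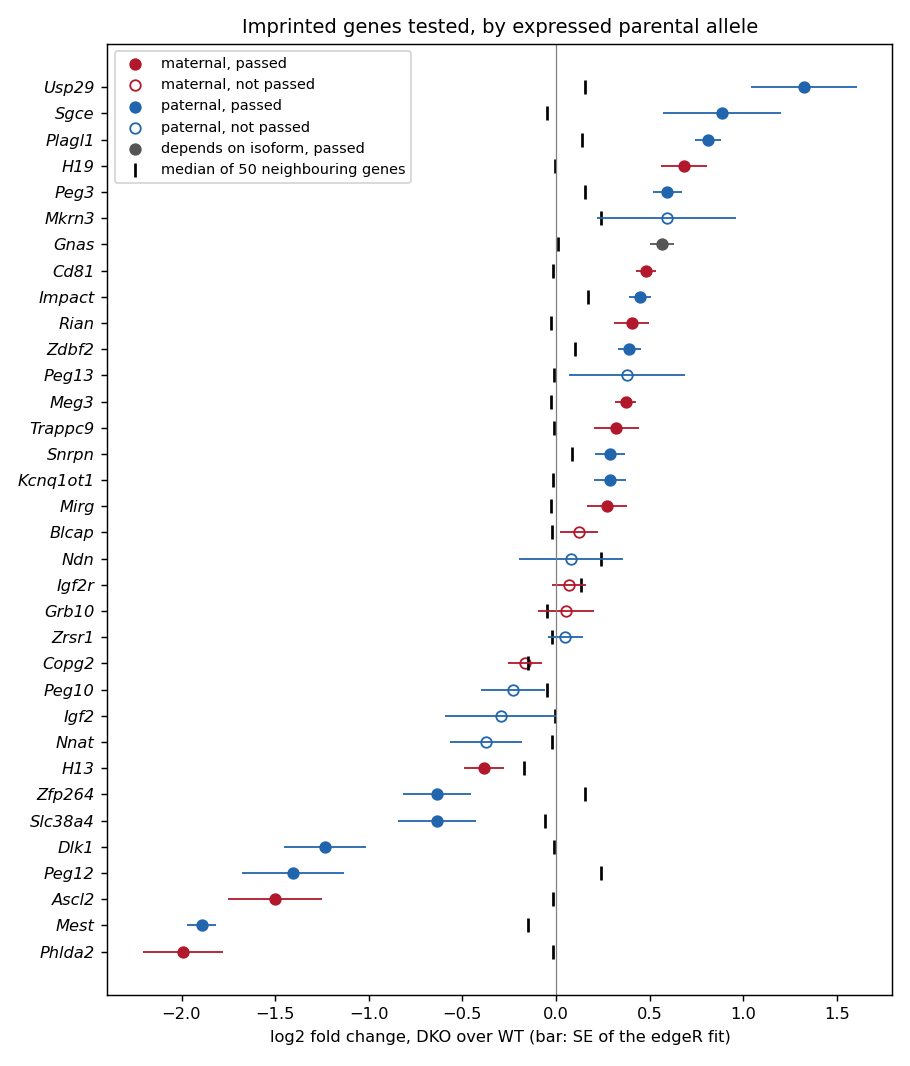
Log2 fold change (DKO over WT, horizontal axis) of the 34 tested imprinted genes, with the SE of the edgeR fit as bars and colours for the expressed parental allele. Filled points passed the test and open points did not. The black tick beside each gene is the median of its 50 nearest tested genes, which lay between -0.17 and 0.24, and 6 genes lie more than 1 unit from 0, Usp29 above and Dlk1, Peg12, Ascl2, Mest and Phlda2 below.

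In the Kcnq1 domain on chromosome 7, 2 maternally expressed genes of the placenta fell while the long noncoding RNA of the domain rose slightly. Phlda2, a restrainer of placental growth (143501545 to 143503150, minus strand), had 14, 11, 16, 13 and 13 counts in DKO 1 to 5, against 50, 59, 68 and 54 counts in WT 1 to 4. Every DKO library lay far below every WT library, with 2.14 ± 0.33 CPM in DKO and 8.53 ± 1.18 CPM in WT (SD, n = 5 and 4). The log2 fold change was -1.99 ± 0.21 (SE, edgeR adjusted p = 1.3e-09). Ascl2, a transcription factor of trophoblast progenitors (142966829 to 142969264, minus strand), had 11, 12, 9, 17 and 10 counts in DKO, against 31, 34, 41 and 39 counts in WT. The groups did not overlap, and the log2 fold change was -1.50 ± 0.25 (SE, edgeR adjusted p = 7.12e-06). Of the 5 trophoblast markers, Gata3 fell with these genes. The 5 markers summed to 3.74 to 7.54 CPM in DKO and 6.43 to 10.1 CPM in WT, with Gata3 the only marker tested (log2 fold change -0.90, edgeR adjusted p = 0.000699) and Elf5 at 1 count in each group. Over all libraries, Cdx2 had 31 counts in DKO and 21 in WT, Hand1 5 in DKO and 3 in WT, and Plac1 2 in DKO and 0 in WT. The part of such cells in the falls was not tested, and in bulk RNA fewer cells of a type and less RNA per cell cannot be told apart.

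Other genes of the domain went both ways. Among the further imprinted genes, Tspan32, between Ascl2 and Cd81, fell with overlapping groups (log2 fold change -0.87 ± 0.31, edgeR adjusted p = 0.0212). Dhcr7, past Phlda2, fell as well (-0.65 ± 0.15, edgeR adjusted p = 0.000641). Tssc4, next to Cd81, rose with no overlap (0.26 ± 0.07, edgeR adjusted p = 0.00128). Nap1l4 did not pass (-0.08 ± 0.05, edgeR adjusted p = 0.199). Tspan32, Tssc4 and Nap1l4 are named here after their values were seen. Kcnq1ot1, the paternally expressed antisense RNA that silences the domain in cis, had 342 to 492 counts in DKO with a median of 427, and 341, 330, 410 and 379 counts in WT. Its level was 65.8 ± 9.23 CPM in DKO and 53.8 ± 4.52 CPM in WT, with overlapping groups (log2 fold change 0.29 ± 0.09, edgeR adjusted p = 0.00651). Cd81, a tetraspanin at the edge of the domain, rose to 237.6 ± 11.5 CPM in DKO, against 170.3 ± 7.95 CPM in WT, with no overlap (log2 fold change 0.48 ± 0.05, edgeR adjusted p = 1.73e-09). Cdkn1c, a cell cycle inhibitor, had too few reads for the test, with 8 to 11 counts in DKO and 8 to 23 counts in WT. In a fit without the filter its log2 fold change was -0.60 (edgeR adjusted p = 0.247). The 50 genes around the domain had a median log2 fold change of -0.01.

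The H19-Igf2 domain lies next to the Kcnq1 domain. H19, a maternally expressed noncoding RNA that limits growth (142575529 to 142578143, minus strand), had 137, 162, 157, 198 and 165 counts in DKO, against 110, 112, 119 and 99 counts in WT. All DKO libraries lay above all WT libraries, at 26.2 ± 4.63 CPM in DKO and 16.3 ± 1.53 CPM in WT. The log2 fold change was 0.68 ± 0.12 (SE, edgeR adjusted p = 1.63e-05). Igf2, the fetal growth factor expressed from the other allele, was low in both groups, at 11 to 18 counts in DKO and 10 to 27 counts in WT, and did not pass (log2 fold change -0.30 ± 0.30, edgeR adjusted p = 0.432). Igf2 thus rests on few reads. Igf2os, annotated on the opposite strand, shares 98 exon bases with it and had 19 counts in all. Another gene annotated over its exons on the same strand has no row in the deposited counts.

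In the Dlk1-Dio3 domain on chromosome 12, the genes expressed from opposite alleles moved in opposite directions. Dlk1, a paternally expressed membrane ligand that restrains differentiation (109452823 to 109463336, plus strand), had 16, 20, 14, 17 and 20 counts in DKO, against 46, 33, 50 and 48 counts in WT. The groups were apart, at 2.77 ± 0.40 CPM in DKO and 6.52 ± 1.02 CPM in WT (log2 fold change -1.23 ± 0.22, edgeR adjusted p = 1.54e-05). Dio3, the thyroid hormone deiodinase at the other end of the domain and a gene of the list of further imprinted genes, fell to 4, 13, 7, 9 and 11 counts in DKO, against 104, 109, 106 and 118 counts in WT. Its log2 fold change was -3.51 ± 0.21 (SE, edgeR adjusted p = 5.8e-16). Rtl1, a paternally expressed gene derived from a retrotransposon, had 0 counts in every library, which allows up to 0.423 to 0.497 CPM per library (3 counts, counting error only).

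The 3 maternally expressed noncoding RNAs of this domain, which lie between Dlk1 and Dio3, rose by small amounts. Meg3 (109541001 to 109571726, plus strand) had 1554, 1329, 1409, 1465 and 1502 counts in DKO, against 1172, 1059, 1310 and 1294 counts in WT. That was 231 ± 14.2 CPM in DKO and 178 ± 13.2 CPM in WT, with no overlap (log2 fold change 0.37 ± 0.06, edgeR adjusted p = 1.15e-06). Rian, which hosts small nucleolar RNAs, rose to 42.8 ± 4.74 CPM in DKO, against 32.3 ± 3.36 CPM in WT (log2 fold change 0.41 ± 0.09, edgeR adjusted p = 0.000465). Mirg, which hosts microRNAs, stood at 28.2 ± 3.08 CPM in DKO and 23.3 ± 3.57 CPM in WT, with overlapping groups (log2 fold change 0.27 ± 0.11, edgeR adjusted p = 0.0376). The Mirg call was lost without WT 1 (adjusted p = 0.225), WT 2 (0.0602), DKO 4 (0.128) or DKO 5 (0.0559), and in DESeq2 (0.0963). The 3 RNAs may share 1 primary transcript, so they are not independent of each other. The hexamer before Meg3 printed above lies in this domain, and the 50 genes nearest Meg3 had a median of -0.03.

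**Figure D2:**
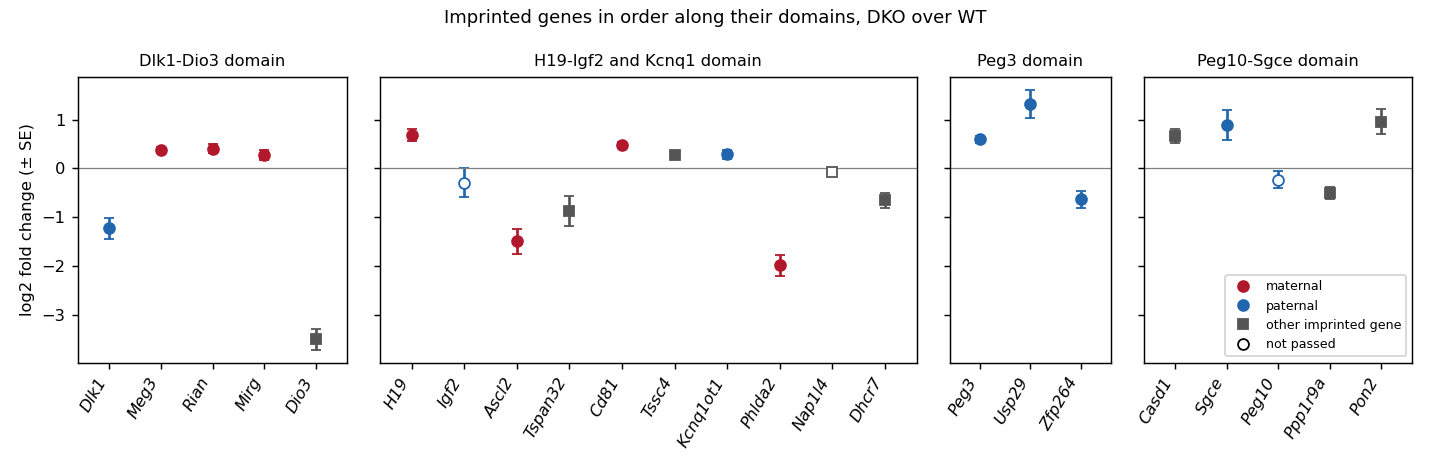
Log2 fold change (DKO over WT, vertical axis, with SE) of every tested gene of the member list and of the list of further imprinted genes in 4 domains, in order of position along the chromosome and not to scale. Circles are members, coloured by expressed allele, and grey squares are further imprinted genes. Dlk1 (-1.23) and Dio3 (-3.51) lie below 0 on both sides of Meg3, Rian and Mirg, which lie between 0.27 and 0.41.

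Mest, an enzyme of the hydrolase fold and a growth regulator expressed from the paternal allele, showed the smallest adjusted p of all members. It lies on chromosome 6 (30723547 to 30748465, plus strand) and had 211, 195, 152, 147 and 167 counts in DKO, against 673, 697, 685 and 730 counts in WT. Mest was 3.71 times as high in WT, at 27.6 ± 3.20 CPM in DKO and 103 ± 2.71 CPM in WT, far beyond the spread of either group (log2 fold change -1.89 ± 0.08, edgeR adjusted p = 1.06e-20). Copg2, a coat protein gene that runs toward Mest on the opposite strand, shares 912 exon bases with it at their 3' ends. Copg2 stood at 27.7 ± 1.24 CPM in DKO and 31.0 ± 2.39 CPM in WT and did not pass (log2 fold change -0.16 ± 0.09, edgeR adjusted p = 0.139). The strand setting of the counting is not given in the sources used here, so reads in the shared stretch could be lost or assigned to either gene. The 50 nearest genes had a median of -0.15, and the printed Mest stretch holds 2 hexamers. Mest and Dlk1 are also read in fibroblasts, whose 7 markers summed to 1.15 to 3.76 CPM in DKO and 2.50 to 4.40 CPM in WT, with Lum at 0 in every library. The part of such cells in the falls was not tested.

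Peg10 and Sgce, on proximal chromosome 6, start next to each other in opposite directions from a maternally methylated promoter. Sgce, a sarcoglycan, had 13, 20, 19, 23 and 24 counts in DKO, against 6, 8, 16 and 16 counts in WT. The lowest DKO library lay within the range of WT (log2 fold change 0.89 ± 0.32, edgeR adjusted p = 0.0193), and the call was lost without WT 1 (adjusted p = 0.0935) or WT 2 (0.0721) and in DESeq2 (0.0563). Peg10, a retrotransposon-derived gene of the placenta, had 35 to 64 counts in DKO and 53 to 69 counts in WT and did not pass (log2 fold change -0.23 ± 0.17, edgeR adjusted p = 0.279). Further imprinted genes near the pair went both ways, with no overlap between groups. Pon2 (0.96 ± 0.25, edgeR adjusted p = 0.00213) and Casd1 (0.67 ± 0.15, 0.00024) rose, and Ppp1r9a (-0.50 ± 0.12, 0.00102) fell. Pon2 and Ppp1r9a are named here after their values were seen. Nap1l5, further along chromosome 6, had 4 to 9 counts in DKO and 2 to 11 counts in WT, too few to be tested.

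The Peg3 domain at the proximal end of chromosome 7 held rises and a fall. Peg3, a zinc finger protein that acts on maternal behaviour and growth (6703892 to 6730431, minus strand), had 1218, 986, 922, 988 and 1045 counts in DKO, against 663, 754, 630 and 894 counts in WT. It stood at 164 ± 12.1 CPM in DKO and 108 ± 15.5 CPM in WT with no overlap (log2 fold change 0.59 ± 0.08, edgeR adjusted p = 7.1e-07). Usp29, a ubiquitin protease gene that starts from the same promoter in the other direction (6730578 to 6967219, plus strand), had 35, 35, 13, 37 and 38 counts in DKO, against 11, 17, 12 and 14 counts in WT. DKO 3 lay within the range of WT and the other DKO libraries above it, and the log2 fold change was 1.32 ± 0.28 (SE, edgeR adjusted p = 0.000215), or 1.51 without DKO 3. The interval between both genes, printed above, holds 1 CACCC box.

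Zfp264, a zinc finger gene downstream of Usp29 in the same domain, fell. It had 42, 57, 28, 32 and 41 counts in DKO, against 74, 62, 75 and 56 counts in WT, with DKO 2 reaching into the WT range (log2 fold change -0.63 ± 0.18, edgeR adjusted p = 0.0039). Zim1, the maternally expressed gene of the domain, had 0 to 3 counts in DKO and 1 to 6 counts in WT and was not tested. Zim3, which is antisense to Usp29 and Zfp264, had 5 counts over all libraries. The median of the 50 nearest genes was 0.15.

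In the Snrpn domain of central chromosome 7, the Prader-Willi region, Snrpn rose slightly and Peg12 fell. Snrpn, a splicing protein gene whose promoter holds the control region, had 278 to 356 counts in DKO and 252 to 284 counts in WT. That was 49.1 ± 4.09 CPM in DKO and 40.2 ± 1.99 CPM in WT (log2 fold change 0.29 ± 0.08, edgeR adjusted p = 0.00315). Peg12 (62461871 to 62464510, minus strand), which acts in Wnt signalling, had 24, 20, 5, 11 and 11 counts in DKO, against 48, 42, 32 and 40 counts in WT. All DKO libraries lay below WT, with DKO 3 the lowest (log2 fold change -1.40 ± 0.27, edgeR adjusted p = 5.63e-05), while the 50 nearest genes had a median of 0.24. Ndn, a gene of neuronal differentiation, did not pass (log2 fold change 0.08 ± 0.28, edgeR adjusted p = 0.842), nor did the ring finger gene Mkrn3 (0.59 ± 0.37, adjusted p = 0.201), which passed without WT 4 (1.14, adjusted p = 0.0118). Magel2 had 1 to 3 counts in DKO and 0 to 1 in WT and was not tested.

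Plagl1, a zinc finger factor that acts on other imprinted genes, was the member with the smallest adjusted p among those that rose. On chromosome 10 (13060504 to 13131694, plus strand), it had 1019, 1012, 800, 826 and 1043 counts in DKO, against 502, 589, 553 and 657 counts in WT. The groups were well apart, at 149 ± 13.5 CPM in DKO and 84.9 ± 8.25 CPM in WT (log2 fold change 0.81 ± 0.07, edgeR adjusted p = 1.46e-11), with a median of 0.14 for the neighbours. Gnas, which encodes the stimulatory G protein and imprinted variants of it, had 752, 736, 640, 772 and 768 counts in DKO, against 550, 549, 521 and 512 counts in WT. All DKO libraries were higher (log2 fold change 0.57 ± 0.07, edgeR adjusted p = 6.45e-09). Gnas shares 988 exon bases with Nespas, an antisense RNA with 472 counts in all. The Gnas variants share their 3' end, so that the count does not separate the maternal, paternal and biallelic ones.

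Impact, a regulator of translation under amino acid stress, rose to 241 ± 22.8 CPM in DKO, against 176 ± 6.43 CPM in WT (log2 fold change 0.45 ± 0.06, edgeR adjusted p = 7.24e-08), where the neighbours had a median of 0.17. Zdbf2, a growth-linked gene of the hypothalamus, rose to 132 ± 11.5 CPM in DKO, against 101 ± 2.07 CPM in WT (log2 fold change 0.39 ± 0.06, edgeR adjusted p = 2.38e-06). No DKO library overlapped WT for either gene. H13, a signal peptide peptidase, fell to 17.6 ± 1.40 CPM in DKO, against 22.9 ± 1.10 CPM in WT (log2 fold change -0.38 ± 0.11, edgeR adjusted p = 0.00329), beside a neighbour median of -0.17.

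Slc38a4, an amino acid transporter of the placenta, separated 1 library from the others. It lies on chromosome 15 (96994820 to 97055956, minus strand) and had 472, 503, 805, 395 and 436 counts in DKO, against 866, 814, 889 and 934 counts in WT. In CPM, DKO 3 stood at 132.1, within the WT range of 124.1 to 132.6, and the other 4 DKO libraries at 66.7 to 78.8. The log2 fold change was -0.64 ± 0.21 (SE, edgeR adjusted p = 0.0374) with all libraries and -0.86 (adjusted p = 1.84e-14) without DKO 3. The call was lost without any other single library (adjusted p = 0.0684 to 0.0808), with no filter on low counts (0.0785) and with the replicate block (0.0888).

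Several members did not pass. Igf2r, the receptor that clears the growth factor IGF2, stood at 44.5 ± 5.02 CPM in DKO and 42.4 ± 4.71 CPM in WT (log2 fold change 0.07 ± 0.09, edgeR adjusted p = 0.543), and its antisense RNA Airn had 1 count in each group. Grb10, an adaptor that dampens insulin signalling, stood at 21.8 ± 5.74 CPM in DKO and 21.1 ± 2.70 CPM in WT (0.05 ± 0.15, adjusted p = 0.797). The splicing factor Zrsr1, a retrogene that shares 412 exon bases with Commd1 on the other strand, stood at 32.6 ± 2.61 CPM in DKO and 31.5 ± 3.62 CPM in WT. Nnat, a small membrane protein of the brain, stood at 7.30 ± 2.31 CPM in DKO and 9.52 ± 1.61 CPM in WT (-0.37 ± 0.19, adjusted p = 0.110), and passed as lower without DKO 1 (0.0408), DKO 3 (0.0453) or WT 4 (0.0426). Blcap, the gene that contains Nnat in an intron, did not pass either (log2 fold change 0.12 ± 0.10, edgeR adjusted p = 0.326). Trappc9, a trafficking protein gene, rose by 0.32 ± 0.12 (SE, edgeR adjusted p = 0.0269), a call lost without DKO 1 (0.0725), WT 3 (0.0981) or WT 4 (0.0730), without the filter (0.0549) and in DESeq2 (0.0698). Peg13, the noncoding RNA inside Trappc9, did not pass (0.38 ± 0.31, edgeR adjusted p = 0.327).

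**Figure D3:**
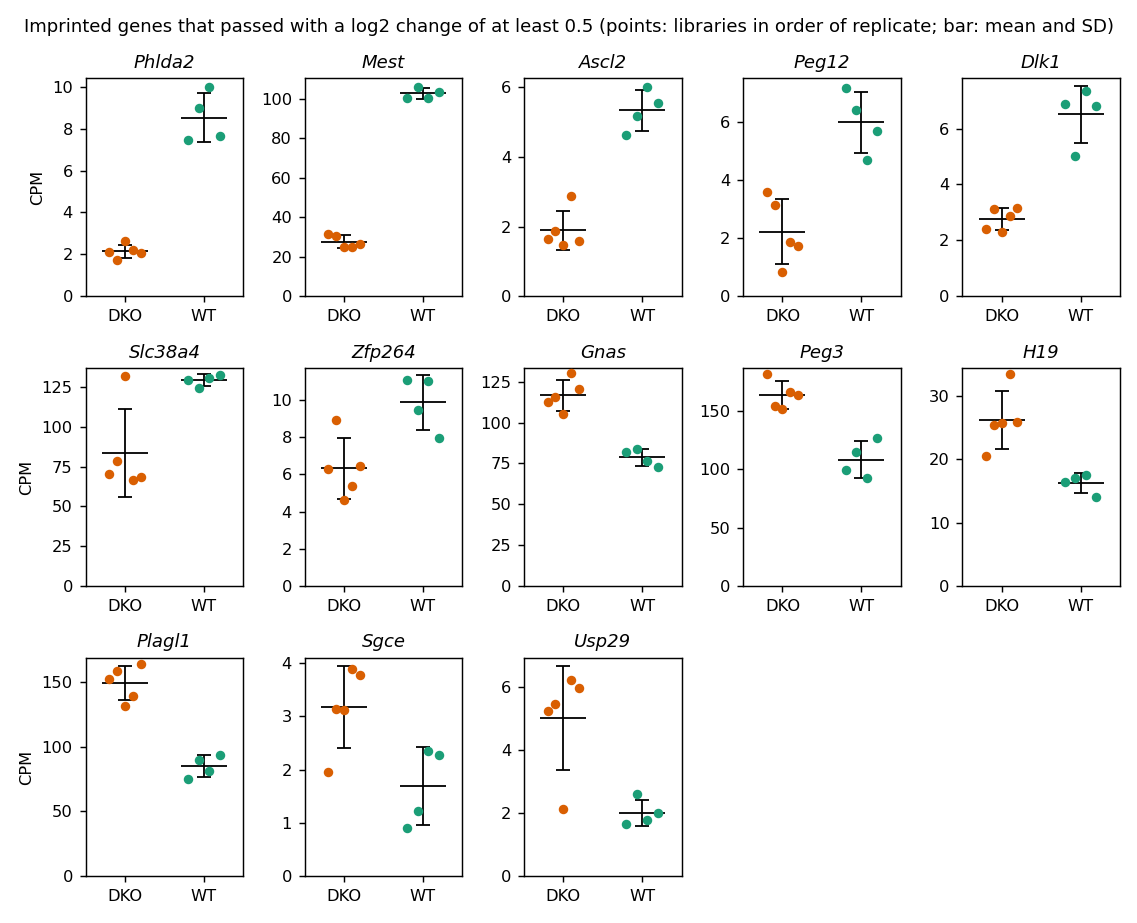
Level in CPM (vertical axis, from 0, a separate scale for each gene) of the 13 imprinted genes that passed with a log2 change of at least 0.5 in size. Points are the 5 DKO libraries, left, and the 4 WT libraries, right, in order of replicate, with the mean and SD in black. Slc38a4, Zfp264, Sgce and Usp29 have a DKO library within or beyond the WT range, and the other 9 genes have none.

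Grouped by expressed allele, neither parental set moved one way. Over all genes tested, 23.9% passed as higher and 24.0% as lower. Of 13 tested members expressed from the maternal allele, 6 rose, 3 fell and 4 did not pass, with a median log2 fold change of 0.12. Of 20 tested members expressed from the paternal allele, 8 rose, 5 fell and 7 did not pass, with a median of 0.18, and Gnas, whose allele depends on the variant, rose. The shares that rose were 46.2% of maternal and 40% of paternal members. The shares that fell, 23.1% and 25%, were close to that of all genes tested. The summed level of the 15 maternal members was 692.6 to 751 CPM in DKO and 573 to 609.6 CPM in WT, and that of the 24 paternal members 974 to 1024 CPM in DKO and 867 to 904 CPM in WT. These sums rest mainly on Meg3 and Cd81 for the maternal set and on Impact, Peg3, Plagl1, Zdbf2 and Slc38a4 for the paternal set. In WT, Mest was also a large part of the paternal sum, at 103 CPM, against 27.6 CPM in DKO. A further grouping took 14 members. It holds 12 listed as starting in a germline region methylated on the maternal copy, and Usp29 and Sgce, which share theirs with Peg3 and Peg10. Of the 12 tested among these 14, 7 rose (Plagl1, Peg3, Usp29, Sgce, Impact, Snrpn and Kcnq1ot1), 1 fell (Mest) and 4 did not pass, with a median of 0.33. That is 58.3% higher and 8.33% lower, against 23.9% and 24.0% of all genes tested. Of the 8 tested paternally expressed members not placed in this set, 1 rose (Zdbf2, 12.5%), 4 fell (50%) and 3 did not pass, with a median of -0.46. Zdbf2 also has a more distant start, printed above, so its place in the second set is uncertain. Usp29 and Sgce were placed after their values were seen. Without them, 5 of 10 tested members of the first set rose, with a median of 0.29, and with them in the second set 3 of 10 rose and 4 fell there, with a median of -0.11. The difference between these sets was not tested.

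Genes outside the member list were read for context. Of 48 further imprinted genes, 23 were tested, of which 8 passed as higher (34.8%, against 23.9% of all genes tested) and 6 as lower (26.1%, against 24.0%), with a median of 0.04. Besides Dio3, those with the smallest adjusted p were Gab1, Sfmbt2, Commd1, Casd1 and Dhcr7. Sfmbt2, a polycomb protein of the placenta, had 564, 498, 370, 645 and 703 counts in DKO, against 85, 111, 82 and 83 counts in WT, with DKO 3 the lowest of the DKO libraries (log2 fold change 2.73 ± 0.23, edgeR adjusted p = 1.18e-05). Commd1 (0.29) and Casd1 (0.67) also rose, and the signalling adaptor Gab1 (-0.42, on chromosome 8, where its neighbours had a median of -0.48) and the cholesterol enzyme Dhcr7 (-0.65) fell, all as log2 fold changes with edgeR adjusted p of 0.000641 or less.

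Of 23 genes listed as factors of imprint methylation or its maintenance, 21 were tested, with a median log2 fold change of -0.15. Of these, 2 rose (9.52%, against 23.9% of all genes tested) and 11 fell (52.4%, against 24.0%). The list mixes methyltransferase genes with Tet genes and Dppa3, so these counts give no direction for methylation. The falls included the methyltransferase cofactor Dnmt3l (-2.38), the dioxygenase Tet3 (-1.18, neighbours -0.31), the histone methyltransferase Setdb1 (-0.37, neighbours -0.21), the helicase Hells (-0.30) and Uhrf1 (-0.30), which brings DNMT1 to replicated DNA, all as log2 fold changes. The other falls ran from -0.13 in Dnmt3b to -0.37 in Tet2. Ctcf, among them (-0.29), lies on chromosome 8, where its neighbours had a median of -0.62. Dppa3, a factor that displaces UHRF1, rose (4.71, neighbours 0.32, edgeR adjusted p = 1.22e-05), with DKO 3 the lowest DKO library at 124.9 CPM. Zfp57 itself had 97, 73, 106, 90 and 83 counts in DKO, against 92, 93, 67 and 99 counts in WT, and did not pass (log2 fold change 0.14 ± 0.14, edgeR adjusted p = 0.436). Dnmt1 did not pass either (0.10 ± 0.05, edgeR adjusted p = 0.0858). Trim28 was among the genes that fell, by a small amount and with overlapping groups (log2 fold change -0.15 ± 0.04, edgeR adjusted p = 0.00536). None of these genes is a member, and their part in the changes of imprinted genes was not tested.

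The libraries of 1 group were not alike for every imprinted gene. The coefficient of variation was larger in DKO than in WT for 22 of 34 tested members, or 64.7%, and for 58.4% of all genes tested. DKO 3, which stood apart on the second component, was the lowest DKO library for 12 of the 34 members and the highest for 4. It was thus at an extreme for 47.1% of members, as were DKO 1 and DKO 4, and for 46.4% of all genes tested. Igf2r, for example, had 35.8 CPM in DKO 3 and 45.0 to 48.1 CPM in the other 4 DKO libraries, beside 36.6 to 47.7 CPM in WT. Grb10 and Nnat were lowest in DKO 4 and DKO 5, with Grb10 at 15.5 and 17.0 CPM there, against 22.8 to 29.8 CPM in DKO 1 to 3. Nnat stood at 4.89 and 4.87 CPM in DKO 4 and 5, against 7.83 to 9.57 CPM in DKO 1 to 3. The labels give no batch or clone that would separate these libraries.

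**Figure D4:**
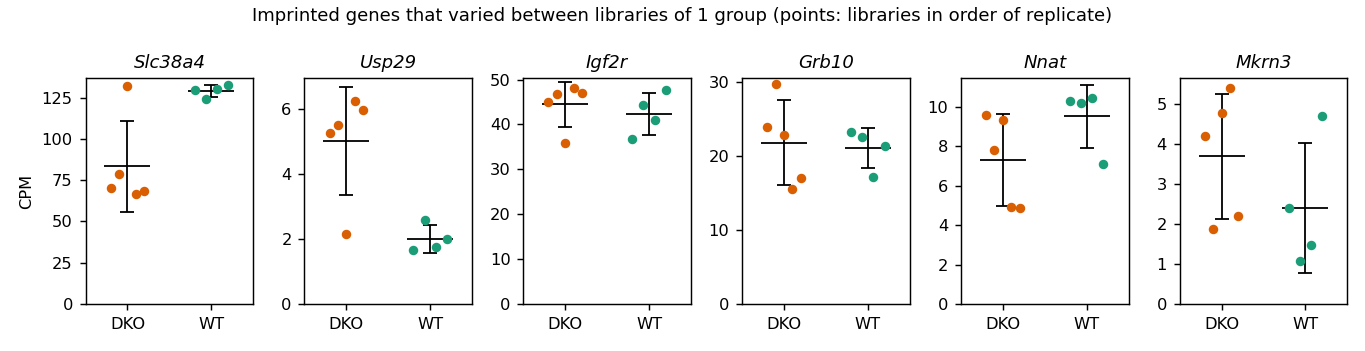
Level in CPM (vertical axis, from 0, a separate scale for each gene) of 6 imprinted genes, picked after their values were seen because libraries of a group lay apart. Points are the 5 DKO libraries, left, and the 4 WT libraries, right, in order of replicate, with the mean and SD in black. DKO 3 lies apart for Slc38a4, Usp29 and Igf2r, and DKO 4 and 5 lie below DKO 1 to 3 for Grb10 and Nnat.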

How the data were processed

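The file deposited by the authors holds raw exon counts, as whole numbers, for each Ensembl gene in 9 libraries. Cutadapt, STAR, featureCounts, DESeq2 and the mm10 build are named, per the submitters' processing notes. The sources used here give no version, annotation release, strand setting or handling of multi-mapped reads, so overlapping, antisense or copied genes are uncertain. Libraries were made from 600 ng of total RNA, per the labels' protocols. Of 52550 identifiers, 52403 were matched to GENCODE mouse release 21, the source of symbols and positions.

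Genes were filtered with filterByExpr, scaled by TMM and tested with the robust quasi-likelihood test of edgeR 4.0.16 (R 4.3.3). The 9 libraries entered 1 fit of DKO against WT, with Benjamini-Hochberg adjustment over 11893 genes. An adjusted p under 0.05 counts as passing. The fit was tested on simulated data. SE is the size of the fold change over the root of F, CPM uses TMM-scaled totals, and means carry the SD. No pair of libraries within a group looked like 1 library deposited in duplicate (chi-square per degree of freedom 2.31 to 5.40 over 16 pairs). Alternatives were DESeq2 1.42.0, its size factors, other filters, TMM factors off chromosomes 6, 8, X, Y and M, each library left out, and a replicate block.

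Members, groupings by allele, promoter or domain, and lists were chosen with earlier results of these data known. Every member is reported. Members that passed with a log2 change of at least 0.5 are given with all counts. Of each further list, up to 6 passing genes with the smallest adjusted p were to be named. Tspan32, Tssc4, Nap1l4, Pon2, Ppp1r9a, Sox17, Thy1, Pdgfrb, Gata4, Zfp57, Dnmt1, Trim28, Dnmt3b, Tet2 and Ctcf were singled out after values were seen. So were Nnat, Grb10 and Igf2r per library. Floors cover counting error only, while SE and SD include the spread among these libraries.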

Additional observations from a re-analysis of the deposited data

Results flagged for a closer look

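In 5 of 68 sets of libraries (34 genes in 2 groups), 1 library lay farther from its nearest neighbour than Dixon's critical value allows for sets of its size, which chance alone exceeds in about 1 in 20 sets. Slc38a4 stood at 132.1 CPM in DKO 3, against 66.7 to 78.8 CPM in the other DKO libraries. Usp29 stood at 2.13 CPM in DKO 3, against 5.23 to 6.24 CPM in the others, and Igf2r at 35.8 CPM in DKO 3, against 45.0 to 48.1 CPM. Ascl2 stood at 2.87 CPM in DKO 4, against 1.48 to 1.88 CPM in the other DKO libraries. Nnat stood at 7.10 CPM in WT 4, against 10.2 to 10.4 CPM in the other WT libraries.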

How the results depend on the processing

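The counts of imprinted genes that passed stayed within 1.5 times the main counts of 15 higher and 8 lower under every alternative run. They were 12 and 8 in DESeq2, 14 and 6 with at least 5 CPM in 4 libraries, 14 and 7 with no filter, and 13 to 15 and 7 to 9 when 1 library was left out. The further imprinted genes gave 6 to 8 higher and 4 to 8 lower, and the methylation genes 2 to 3 higher and 9 to 11 lower, when 1 library was left out. Of the 23 members called, 19 kept their call in every alternative that tested them, and Mirg, Sgce, Trappc9 and Slc38a4 did not. With 1 library left out, the log2 fold change ran from -0.14 to 0.21 for Ndn, negative without DKO 2, and from -0.086 to 0.15 for Grb10, negative without DKO 2 or WT 3 (-0.035), and neither passed in any fit. The cause was not tested. CPM on library totals moved no level of the 68 by more than 1 SD.

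Libraries that share a replicate number were not paired in the main fit. Their deviations from the group means correlated at 0.01 to 0.07 over 4 pairs, and 7 of 8 libraries correlated best with their own number. Whether the numbers mark shared handling was not tested. With the replicate block, in which DKO 5 adds nothing to the contrast, 16 members were higher and 7 lower, and the further imprinted genes gave 7 and 5 and the methylation genes 2 and 10. Mkrn3 passed with the block (0.79, adjusted p = 0.0260) and Slc38a4 did not. Phlda2, Ascl2, Peg12 and Dlk1 have under 3 CPM in DKO, Mkrn3, Usp29 and Sgce in WT, and Igf2, Ndn and Peg13 in both groups, so these values rest on few reads.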

Other observations

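Some imprinted genes of the placenta are known to depend on maternal H3K27 methylation rather than on DNA methylation, among them Sfmbt2, Gab1, Slc38a4, Jade1 and Smoc1. This grouping was made after their values were seen and was not tested. Sfmbt2 rose and Gab1 and Slc38a4 fell, as given above. Jade1, a chromatin reader, stood at 481 ± 15.3 CPM in DKO and 435 ± 16.8 CPM in WT (log2 fold change 0.15 ± 0.05, edgeR adjusted p = 0.00753). Smoc1, a secreted matrix protein, had 31, 28, 22, 57 and 75 counts in DKO, against 75, 74, 113 and 97 counts in WT (log2 fold change -0.96 ± 0.30, edgeR adjusted p = 0.0202). Relative to library size, DKO 1 to 4 lay below every WT library and DKO 5 lay among the WT libraries.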
